A study of Mus musculus with 15 samples.

Results

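The genes described are 10 members of the integrated stress response that runs through the transcription factor ATF4, chosen by symbol among the 55335 gene identifiers of the count files. They are Atf4, Atf3, Atf5, Ddit3, Trib3, Chac1, Asns, Sesn2, Ppp1r15a and Cebpb. RNA was measured in 2 groups of cultured mouse pre-B cells, with 3 libraries titled Msl2 knockout and 3 titled Msl2 wild type. Both groups lack SLP65, the pre-B cell adaptor encoded by Blnk, and both were grown untreated in medium with interleukin 7. Per the labels, bone marrow cells were grown out from 1 cell, and a guide RNA against Msl2, a ubiquitin ligase of the MSL histone acetylation complex, was introduced by electroporation to make the knockout line. Each genotype is thus a single line, and nothing in the labels ties replicates to separate cultures, so the spread behind the p-values is that of these libraries and may be technical. The comparison asked how the knockout line and the wild-type clone differ in gene expression.

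The genotype tags contradict the titles in all 6 libraries, groups follow the titles, and every direction below depends on them. Msl2 RNA was present in both groups, at 110 ± 9.9 CPM in the knockout and 96.3 ± 3.6 CPM in the wild type (CPM, which corrects reads for library size; SD, n = 3 each), so its level does not settle the labels. Libraries held between 14092278 and 20803227 reads. Of 16 pre-B cell markers, 15 had enough reads to be tested, with a summed level of 4069 to 4186 CPM in knockout and 4068 to 4202 CPM in wild-type libraries. Among them, edgeR's quasi-likelihood test called 1, the receptor gene Il7r, against 4.59% of all tested genes. Il7r fell 2.90-fold (adjusted p = 0.00392 in edgeR). The largest positive value among these markers was that of the recombination gene Rag2, with 54, 44 and 37 reads in knockout replicates 1, 2 and 3, against 0, 27 and 0 reads in the wild-type libraries (log2 fold change 2.23, adjusted p = 0.223 in edgeR). It was called higher by limma-voom (adjusted p = 0.031), which called 4.74% of all tested genes. It was also called higher by edgeR without the filter on low counts (adjusted p = 4.69e-07), which called 4.51% of the genes then tested. In that last fit the spread of a typical gene was taken from the trend over all genes, not from its own libraries. Markers of T and NK cells (9), myeloid cells (11) and stroma (8) summed to at most 4.60, 0.995 and 0.132 CPM in a knockout library and 4.68, 1.02 and 0.0564 CPM in a wild-type library. The 8 erythroid and megakaryocyte markers summed to 132 to 190 CPM in knockout and 146 to 170 CPM in wild-type libraries, nearly all of it from the globin gene Hbb-bt. Of those 8, only 3 had enough reads to be tested, and edgeR called 1, Gata1, against 4.59% of all tested genes. Gata1 fell, to 0.24 ± 0.15 CPM in the knockout against 1.85 ± 0.31 CPM in the wild type (adjusted p = 0.00458 in edgeR).

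In the integrated stress response, kinases that sense amino acid shortage, unfolded proteins in the endoplasmic reticulum, heme shortage or viral RNA phosphorylate the initiation factor eIF2. Most translation then slows, while mRNAs with upstream open reading frames, among them those of Atf4, Atf5, Ddit3 and Ppp1r15a, are translated better. ATF4 binds DNA as a dimer with C/EBP family proteins at C/EBP-ATF elements and raises genes of amino acid supply, redox balance, feedback and cell death. RNA counts measure neither the translation of ATF4 nor the phosphorylation of eIF2.

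The promoter windows of the 10 genes were searched on both strands for the C/EBP-ATF element in the form TGATGNAA. All 10 genes had a window in the RefSeq table of GRCm38.p6 (250 bases before to 50 after an annotated start, 11 windows in all). A match was found for 4 of the 10 genes, Atf3, Chac1, Trib3 and Asns, in 4 of their 11 windows, against 3.97% of all 32851 windows. The genes were chosen as members of the ATF4 response, so these shares are a description and not a test. The 4 windows are shown because they carry the sequence through which ATF4 is known to act, together with that of Jdp2, a repressor of the same dimer family whose RNA differed between the groups. Each is written 5′ to 3′ along the gene's own strand, with the matching bases in capitals. They are chr1:191183284-191183583 (minus strand) for Atf3, chr2:119350992-119351291 (plus) for Chac1, chr2:152344011-152344310 (minus) for Trib3, chr6:7693160-7693459 (minus) for Asns and chr12:85599166-85599465 (plus) for Jdp2. The Jdp2 window lies within its annotated gene span, which begins at base 85598656, so it is that of an internal annotated start.
Atf3: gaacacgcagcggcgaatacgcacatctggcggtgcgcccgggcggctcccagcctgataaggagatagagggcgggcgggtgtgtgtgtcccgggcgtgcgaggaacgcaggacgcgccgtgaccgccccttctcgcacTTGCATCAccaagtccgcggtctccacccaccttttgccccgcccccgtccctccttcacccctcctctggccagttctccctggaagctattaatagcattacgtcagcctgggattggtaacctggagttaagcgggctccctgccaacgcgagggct
Chac1: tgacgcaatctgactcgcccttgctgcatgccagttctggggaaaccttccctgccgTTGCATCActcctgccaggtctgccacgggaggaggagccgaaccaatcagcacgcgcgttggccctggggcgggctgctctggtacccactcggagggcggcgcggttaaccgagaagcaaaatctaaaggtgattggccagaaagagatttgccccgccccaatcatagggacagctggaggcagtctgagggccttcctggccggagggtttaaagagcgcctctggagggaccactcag
Trib3: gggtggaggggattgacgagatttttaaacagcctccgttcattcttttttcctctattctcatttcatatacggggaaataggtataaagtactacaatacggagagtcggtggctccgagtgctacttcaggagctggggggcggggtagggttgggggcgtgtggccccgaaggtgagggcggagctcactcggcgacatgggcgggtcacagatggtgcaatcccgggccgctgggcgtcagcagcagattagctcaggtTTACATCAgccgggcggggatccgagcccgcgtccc
Asns: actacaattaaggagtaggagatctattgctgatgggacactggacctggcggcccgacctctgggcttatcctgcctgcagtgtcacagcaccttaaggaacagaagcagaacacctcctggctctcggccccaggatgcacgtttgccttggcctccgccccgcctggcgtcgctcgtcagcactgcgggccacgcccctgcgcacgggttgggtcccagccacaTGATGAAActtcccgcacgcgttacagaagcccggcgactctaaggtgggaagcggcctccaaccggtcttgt
Jdp2: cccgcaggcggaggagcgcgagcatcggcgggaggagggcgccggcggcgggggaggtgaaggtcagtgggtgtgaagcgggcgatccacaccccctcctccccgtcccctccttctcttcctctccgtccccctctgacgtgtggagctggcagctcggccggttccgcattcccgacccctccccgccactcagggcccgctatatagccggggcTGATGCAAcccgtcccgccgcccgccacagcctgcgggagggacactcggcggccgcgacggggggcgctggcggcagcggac

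The match lay at bases 141 to 148 of the window in Atf3, 58 to 65 in Chac1, 265 to 272 in Trib3, 228 to 235 in Asns and 218 to 225 in Jdp2. It read TTGCATCA in Atf3 and Chac1 and TTACATCA in Trib3, all on the reverse strand, and TGATGAAA in Asns and TGATGCAA in Jdp2 on the forward strand. The cAMP response element TGACGTCA was found in 1 of the 10 genes, Ppp1r15a, in 1 of the 11 windows, against 1.79% of all windows. A match is a description of the letters and not a bound site, and no match says only that these letters are not in the window.

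None of the 9 tested genes passed the test between knockout and wild type. Of 13077 genes tested, 600 were called at an adjusted p under 0.05 in edgeR (4.59%, with 1.8% higher and 2.79% lower in the knockout), and the 10 genes contributed 0 calls in edgeR, 0 in DESeq2 (6.06% of all tested genes called) and 0 in limma-voom (4.74%). Without the filter on low counts, 2 of the 10, Atf3 and Trib3, were called lower, against 4.51% of 26696 genes then tested. Of the 9, 1 had an unadjusted p under 0.05, Atf3, against 15.4% of all tested genes. Fitted log2 fold changes were negative for 8 of the 9, with a median of -0.21 and a range from -1.93 to 0.09, against a median of 0.00395 and 49% negative values over all tested genes. That median moved with single libraries, to -0.05 without wild-type replicate 1, -0.35 without knockout replicate 1 and -0.34 without wild-type replicate 3. The tenth gene, Cebpb, had 0 reads in every library and was not tested.

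**Figure D1:**
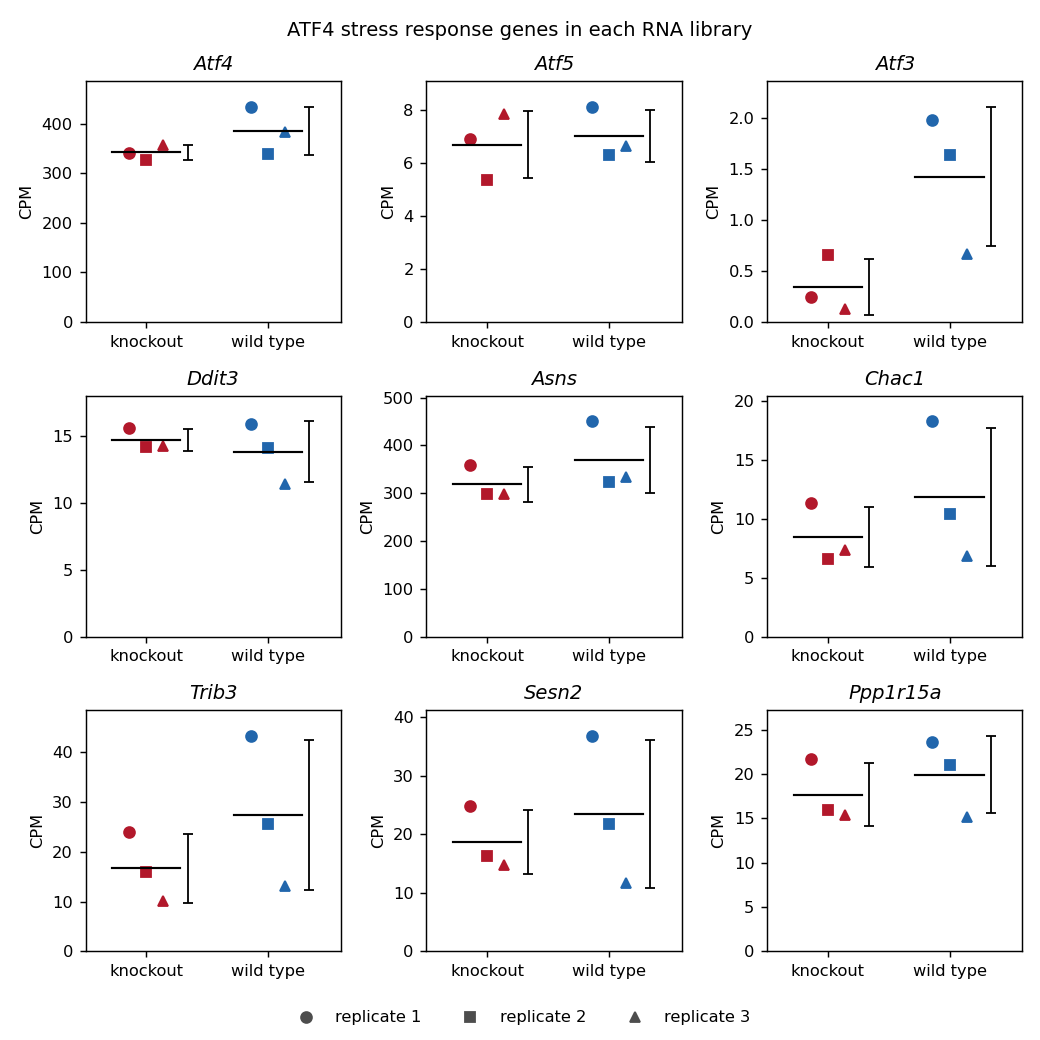
Level of the 9 tested genes in CPM, on linear axes from 0, in 3 knockout (left) and 3 wild-type (right) libraries. Symbols give the replicate number, horizontal lines the group mean and bars its SD. The groups overlap in all panels but that of Atf3, where the nearest libraries are at 0.657 CPM in the knockout and 0.663 CPM in the wild type.

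Atf4 (ENSMUSG00000042406.8, chromosome 15, 80255184 to 80257545, mm10), the central transcription factor, was at 342, 328 and 357 CPM in knockout replicates 1, 2 and 3, against 434, 338 and 382 CPM in wild-type replicates 1, 2 and 3. Wild-type replicate 1 was the highest library and the groups overlapped. The log2 fold change was -0.17 ± 0.10 (SE), with a 95% interval from -0.38 to 0.04 and an adjusted p of 0.47 in edgeR. Here and below, fewer expressing cells and less RNA per cell cannot be told apart in bulk RNA.

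Atf5 (ENSMUSG00000038539.15, chromosome 7, 44812256 to 44816658), a related factor that is also controlled by translation, was at 6.90, 5.35 and 7.85 CPM in the knockout and 8.13, 6.32 and 6.63 CPM in the wild type. The groups overlapped, and the log2 fold change was -0.07 ± 0.19 (SE; adjusted p = 0.93 in edgeR). Its annotated span overlaps those of Nup62 by 571 bases and Il4i1b by 289, so its reads may be shared with theirs.

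Atf3 (ENSMUSG00000026628.13, chromosome 1, 191170296 to 191183333), a stress-induced factor of the same family that often represses transcription, gave the largest difference of the 9 on very few reads. It had 4, 14 and 2 reads in knockout replicates 1, 2 and 3, against 28, 29 and 10 reads in wild-type replicates 1, 2 and 3. In CPM these were 0.249, 0.657 and 0.132 in the knockout and 1.98, 1.64 and 0.663 in the wild type. The groups did not overlap, as for 20.9% of all tested genes, but knockout replicate 2 and wild-type replicate 3 were nearly level. The log2 fold change was -1.93 ± 0.57 (SE), with a 95% interval from -3.19 to -0.67, an unadjusted p of 0.00661 and an adjusted p of 0.0954 in edgeR. Without knockout replicate 2 the adjusted p was 0.0419 and without wild-type replicate 3 it was 0.0499, which would each count as a call, and the log2 fold change ran from -2.83 to -1.58 over the 6 fits that leave out a library.

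Ddit3 (ENSMUSG00000025408.15, chromosome 10, 127290793 to 127296291) encodes CHOP, a C/EBP family factor linked to cell death in prolonged stress. It was at 15.6, 14.1 and 14.3 CPM in the knockout and 15.9, 14.1 and 11.4 CPM in the wild type. It was the only one of the 9 with a positive log2 fold change, 0.09 ± 0.14 (SE; adjusted p = 0.864 in edgeR), and that sign turned without wild-type replicate 3 (-0.03). Its span overlaps Mbd6 by 77 bases and Mars1 by 71. A further identifier that the name table pairs with Ddit3 had 0 reads in all libraries.

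Cebpb (ENSMUSG00000056501.3, chromosome 2, 167688915 to 167690432), a C/EBP factor that pairs with ATF4 and CHOP, had 0 reads in all 6 libraries. A count of 0 allows up to 3 reads, or between 0.141 and 0.198 CPM in a knockout library and 0.169 and 0.212 CPM in a wild-type library, for counting error only. Such zeros were common, as 28639 of the 55335 identifiers had no read in any library. Among the other C/EBP genes, Cebpa also had 0 reads, Cebpd and Cebpe had too few to be tested, and Cebpg, which dimerises with ATF4, was at 110, 102 and 114 CPM in the knockout and 119, 105 and 98.2 CPM in the wild type (adjusted p = 0.96 in edgeR).

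Among the target genes, Trib3 (ENSMUSG00000032715.9, chromosome 2, 152337425 to 152344060), a pseudokinase that restrains ATF4 and CHOP, was at 23.9, 16 and 10.1 CPM in knockout replicates 1, 2 and 3, against 43.2, 25.6 and 13.2 CPM in wild-type replicates 1, 2 and 3. Replicate 1 was highest and replicate 3 lowest in each group, and the groups overlapped widely. The log2 fold change was -0.71 ± 0.38 (SE), with a 95% interval from -1.56 to 0.14 and an adjusted p of 0.448 in edgeR. It ran from -1.05 without knockout replicate 1 to -0.23 without wild-type replicate 1. The call made without the filter on low counts had an adjusted p of 9.57e-07 in edgeR. In that fit the spread of a typical gene was taken from the trend over all genes, not from its own libraries. With replicate number as a block, edgeR also called Trib3 lower (adjusted p = 0.0106). Whether replicate numbers pair the libraries was not tested. The adjusted p ranged from 9.57e-07 to 0.876 over all alternatives.

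Chac1 (ENSMUSG00000027313.3, chromosome 2, 119351242 to 119354326), an enzyme that degrades glutathione, was at 11.4, 6.62 and 7.39 CPM in the knockout and 18.3, 10.4 and 6.9 CPM in the wild type. The wild-type libraries spanned all but 1 of the knockout values, and the log2 fold change was -0.49 ± 0.32 (SE; adjusted p = 0.563 in edgeR). Sesn2 (ENSMUSG00000028893.8, chromosome 4, 132492804 to 132510456), a leucine sensor that restrains the growth kinase complex mTORC1, was at 24.8, 16.3 and 14.7 CPM in the knockout and 36.7, 21.8 and 11.7 CPM in the wild type. All 3 knockout libraries lay within the wild-type range. Its log2 fold change was -0.33 ± 0.34 (SE; adjusted p = 0.756 in edgeR), and 0.14 without wild-type replicate 1.

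Asns (ENSMUSG00000029752.12, chromosome 6, 7675165 to 7693209), asparagine synthetase, was at 360, 297 and 298 CPM in the knockout and 450, 324 and 334 CPM in the wild type. Replicate 1 was the highest in each group, and knockout replicate 1 lay above wild-type replicates 2 and 3. The log2 fold change was -0.21 ± 0.13 (SE), with a 95% interval from -0.50 to 0.07 and an adjusted p of 0.519 in edgeR. Ppp1r15a (ENSMUSG00000040435.12, chromosome 7, 45522917 to 45526268), the GADD34 subunit that directs a phosphatase to eIF2 and so ends the response, was at 21.7, 16 and 15.3 CPM in the knockout and 23.6, 21 and 15.1 CPM in the wild type. All 3 knockout libraries lay within the wild-type range (log2 fold change -0.18 ± 0.18, SE; adjusted p = 0.755 in edgeR). Its span overlaps Tulp2 by 730 bases.

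**Figure D2:**
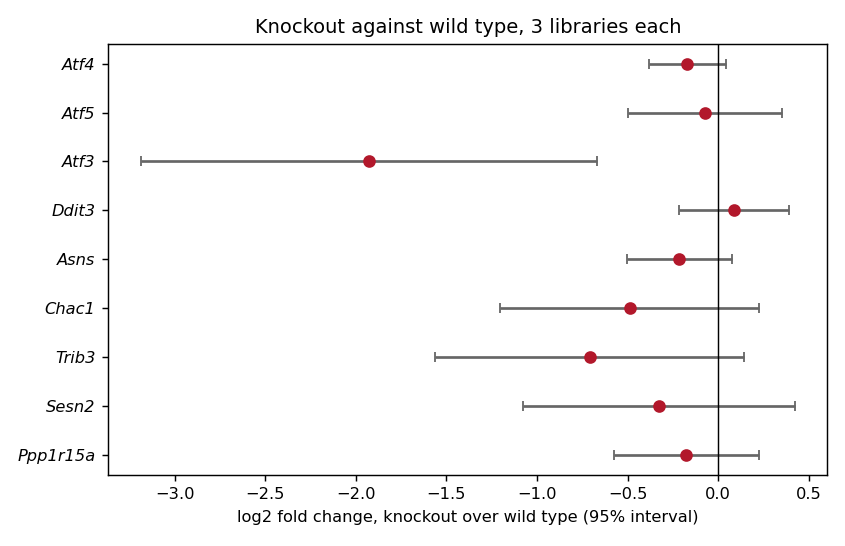
Log2 fold change of knockout over wild type for the 9 tested genes, as points with 95% intervals from edgeR's fit. The interval of each gene but Atf3 includes 0, and that of Atf3 runs from -3.19 to -0.67 before adjustment for the 13077 genes tested.

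The larger contrast in several of these genes was between libraries of 1 group. The highest wild-type library exceeded the lowest by 3.27-fold for Trib3, 3.15-fold for Sesn2 and 2.65-fold for Chac1, and the highest knockout library exceeded the lowest by 2.37-fold, 1.69-fold and 1.72-fold for the same genes. The SD of log2 CPM within groups was 0.74 for Trib3, 0.65 for Sesn2 and 0.57 for Chac1, larger than in 97.3%, 95.5% and 93.4% of tested genes. Atf3 had an SD of 0.79, on the few reads given above. Atf4 itself had an SD of 0.13, near the median of 0.15 over all tested genes and larger than in 43.8% of them, and Asns had 0.22.

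The libraries with the high values were mostly the same. Wild-type replicate 1 was the highest of its group for 9 of the 9 genes, against 33% of all tested genes. Knockout replicate 1 was the highest for 6 of the 9 (Ddit3, Trib3, Chac1, Asns, Sesn2 and Ppp1r15a), against 36.5% of all tested genes. The labels give no batch, culture or date for replicate 1, and its part in these values was not tested.

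**Figure D3:**
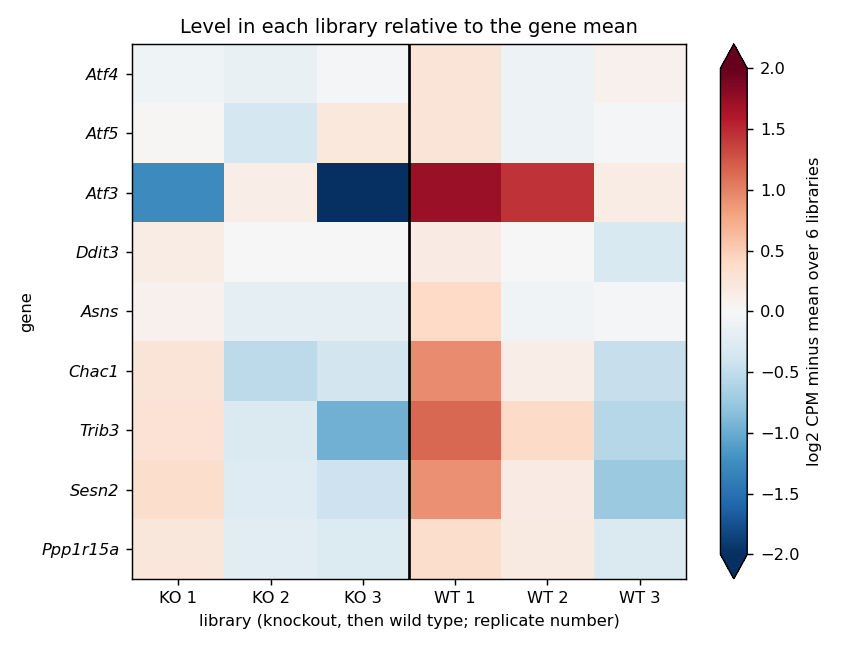
Log2 CPM of the 9 tested genes in each library minus the gene's mean over the 6 libraries, with knockout libraries left of the line and wild-type libraries right of it. Wild-type replicate 1 is above the mean in every row, and knockout replicate 1 is above it for Chac1, Trib3 and Sesn2, while replicate 3 of each group is below it for these genes. Colours end at 2 on either side.

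The genes upstream of ATF4 did not pass the test either. Of 19 eIF2 kinases, eIF2 and eIF2B subunits and related regulators tested, 0 were called by edgeR, DESeq2 or limma-voom. These tools called 4.59%, 6.06% and 4.74% of all tested genes. In edgeR, 1 of the 19 had an unadjusted p under 0.05, against 15.4% of all tested genes. That gene was Eif2ak3, the kinase PERK of the endoplasmic reticulum, at 31.4, 34.5 and 32.8 CPM in the knockout and 35.7, 41.2 and 36.8 CPM in the wild type (log2 fold change -0.20, adjusted p = 0.319 in edgeR). Eif2ak4, the kinase GCN2 that senses uncharged tRNA, was at 52.2, 46.9 and 42.8 CPM in the knockout and 50.2, 45.3 and 44.5 CPM in the wild type (adjusted p = 0.962). The median over the list was a log2 fold change of -0.03.

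Of 51 further ATF4 targets in the files, 40 were tested and edgeR called 1, Psat1, which fell. DESeq2 and limma-voom each called 1 as well. Over all tested genes, the share called was 4.59% in edgeR, 6.06% in DESeq2 and 4.74% in limma-voom. In edgeR, 6 of the 40 had an unadjusted p under 0.05, 4 lower and 2 higher, against 15.4% of all tested genes. Over the list, the median log2 fold change was -0.06, with 28 of 40 values negative, against 49% of all tested genes. Psat1, the aminotransferase of serine synthesis, was at 17.2, 72.9 and 18.9 CPM in the knockout and 289, 271 and 270 CPM in the wild type (log2 fold change -2.90 ± 0.45, SE; adjusted p = 0.00445 in edgeR). Its knockout libraries all lay far below the wild type, and its log2 fold change was -3.93 without knockout replicate 2. The other enzymes of that pathway did not pass the test in the main fit. Phgdh was at 579, 583 and 593 CPM in the knockout and 613, 557 and 624 CPM in the wild type (adjusted p = 0.913). Psph was at 83, 73.3 and 64.1 CPM in the knockout and 103, 81.4 and 93.5 CPM in the wild type (adjusted p = 0.152). Its log2 fold change was -0.33. It was called lower by edgeR with replicate number as a block (adjusted p = 0.0496) and without the filter on low counts (adjusted p = 0.011). The cystine transporter gene Slc7a11, a common ATF4 target, had too few reads to be tested.

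The 20 cytosolic aminoacyl-tRNA synthetase genes, many of which ATF4 raises, had 0 calls in edgeR, DESeq2 and limma-voom. These tools called 4.59%, 6.06% and 4.74% of all tested genes in the same order. An unadjusted p under 0.05 in edgeR was seen for 1 of the 20, against 15.4% of all tested genes. Their log2 fold changes ran from -0.18 to 0.09, with a median of -0.07 and 16 of 20 negative, against 49% of all tested genes.

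Among 12 tested bZIP factors that can pair with ATF4 or CHOP, edgeR called 1, against 4.59% of all tested genes. Jdp2, a Jun dimerisation protein that represses transcription, fell to 0.249, 0.188 and 0 CPM in the knockout, against 2.83, 1.30 and 1.06 CPM in the wild type (log2 fold change -3.44 ± 0.66, SE; adjusted p = 0.0139 in edgeR). The groups did not overlap, but knockout levels rest on at most 4 reads a library. The call was lost without both libraries numbered 2 (adjusted p = 0.0538).

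The other arms of the unfolded protein response are run by IRE1 with XBP1 and by ATF6. Of 29 such genes tested, 4 fell and 0 rose in edgeR, against 2.79% lower and 1.8% higher over all tested genes. The median log2 fold change was -0.14, with 26 of 29 values negative, against 49% of all tested genes. DESeq2 called 5 lower and limma-voom 4, where they called 6.06% and 4.74% of all tested genes in either direction. EdgeR called 6 lower with the replicate block (565 of all 13077 tested genes) and 7 without the filter on low counts (721 of 26696). Xbp1, the factor activated by IRE1, was at 173, 194 and 176 CPM in the knockout and 465, 394 and 474 CPM in the wild type, a log2 fold change of -1.30 ± 0.09 (SE; adjusted p = 6.82e-05 in edgeR). Derl3, of endoplasmic reticulum-associated degradation, fell 2.14-fold (adjusted p = 0.00333). Edem2, of the same process, fell 1.25-fold and Sec61b, of the protein entry channel, 1.26-fold. Leaving out any 1 library ended the Edem2 call (adjusted p between 0.0535 and 0.132), and leaving out any 1 but wild-type replicate 2 ended the Sec61b call (between 0.0863 and 0.144). Hspa5, the chaperone BiP, was at 1566, 1859 and 2002 CPM in the knockout and 1720, 1858 and 2536 CPM in the wild type (adjusted p = 0.692), with overlapping groups.

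**Figure D4:**
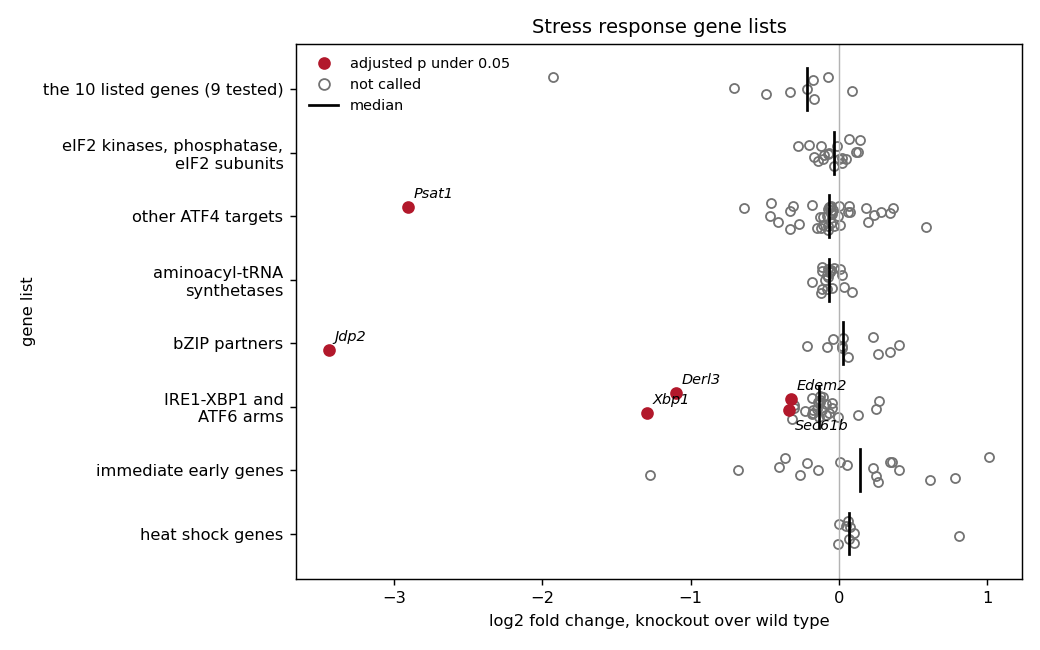
Log2 fold change of knockout over wild type for each tested gene of 8 lists, 1 circle a gene, filled where edgeR's adjusted p was under 0.05, with a line at each list's median. The 6 filled circles are Psat1, Jdp2, Xbp1, Derl3, Edem2 and Sec61b, all on the negative side, and none is among the 10 genes described first.

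Of all tested genes, the 5 whose profile over the 6 libraries was closest to that of Atf3, the gene with the smallest p of the 9, were 2010016I18Rik, Iqsec1, Grb10, Mc1r and Gm37403. Closeness was the root mean square difference of log2 CPM centred on each gene's mean, which ran from 0.30 for 2010016I18Rik to 0.36 for Gm37403. Iqsec1, for instance, was at 1.62, 1.92 and 0.924 CPM in the knockout and 9.04, 7.33 and 4.11 CPM in the wild type, so that like Atf3 it was lowest in replicate 3 of each group. With the few reads of Atf3, the order of these genes is imprecise.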

How the data were processed

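The deposited files hold raw read counts per Ensembl gene for 6 RNA libraries, per the file headers. The RNA was total RNA depleted of ribosomal RNA, per the labels' protocols. Among the tools in the submitters' processing notes are featureCounts 2.0.0 and STAR 2.5.3a, with the build mm10 and no roles. Neither strand setting nor annotation release was given in the sources used here. The chromatin immunoprecipitation samples were not analysed here.

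Of 55335 identifiers, 55154 matched a symbol, by ID or by ID without its version. Genes were kept by filterByExpr (13077), scaled by TMM and tested with edgeR 4.0.16 (quasi-likelihood, no covariate) in R 4.3.3, with Benjamini-Hochberg adjustment over all of them and a threshold of 0.05. The 95% intervals come from that fit, and its biological coefficient of variation was 0.109. All pairs of replicates differed by more than sampling noise (chi-square per degree of freedom 7.38 to 19.3). No molecular identifiers are named, so floors of 3 counts cover counting error only. Alternatives were RLE scaling, library totals, no filter, a mean log2 CPM of at least 2, DESeq2 1.42.0, limma-voom (limma 3.58.1), the replicate block and leaving out libraries. Positions, overlaps and promoters came from RefSeq, GRCm38.p6, by symbol. The genes, lists and naming rule (the 10 genes, called genes of the lists, up to 4 other genes a list by role, and the 5 profiles nearest to the gene with the smallest p) were chosen with earlier results of these data known.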

Additional observations from a re-analysis of the deposited data

How the results depend on the processing

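Under 14 alternatives, 0 of the 10 genes were called higher in the knockout. Genes called lower were 2, Atf3 and Trib3, without the filter on low counts (adjusted p 0.000929 and 9.57e-07) and 2, the same genes, with the replicate block (0.0334 and 0.0106), and from 0 to 1 when 1 library was left out. Over all alternatives the adjusted p ran from 0.000929 to 0.292 for Atf3 and from 9.57e-07 to 0.876 for Trib3. The median prior degrees of freedom of edgeR's fit, which set how far a gene's spread is drawn to the trend, were infinite without the filter and 6.15 with it. Deviations from group means of same-numbered libraries had r of 0.03, 0.21 and 0.40 across genes. Between libraries of different number, r ran from -0.396 (knockout 2 with wild-type 3) to 0.272 (knockout 2 with wild-type 1). Whether replicate numbers pair the libraries was not tested. With the replicate block, 381 genes were higher and 565 lower over all tested genes, and 5 further ATF4 targets were lower. Without the filter these were 482, 721 and 5, with 3 further ATF4 targets higher. A mean log2 CPM of at least 2 gave 234 lower genes, and leaving out both libraries numbered 2 gave 224. Atf3 was not tested in either of those fits. Leaving out 1 library gave 138 to 227 higher and 242 to 316 lower genes, and 1 to 2 further ATF4 targets lower. The sign turned for Atf5 (-0.197 to 0.0811 when 1 library was left out, and 0.0045 without both libraries numbered 2), Sesn2 (-0.646 to 0.143) and Ddit3 (-0.0293 to 0.196). The cause was not tested. No direction turned for the other 6 genes, under RLE scaling or library totals included. With 3 libraries a group, the intervals of Trib3, Chac1 and Sesn2 do not exclude a 2-fold lower level.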

Other observations

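Immediate early and heat shock genes, which many stresses also raise, were examined beside the ATF4 genes. Of 18 immediate early genes tested, 0 were called by edgeR (4.59% of all tested genes were) and 5 had an unadjusted p under 0.05 (15.4% of all tested genes), while DESeq2 called 1 higher and 1 lower and limma-voom called 1 lower. Over all tested genes, DESeq2 called 6.06% and limma-voom 4.74%. Without the filter on low counts, edgeR called 2 higher and 3 lower, against 4.51% of 26696 genes then tested. In that fit the spread of a typical gene was taken from the trend over all genes, not from its own libraries. Egr1, an early growth response factor, was at 15.4, 7.75 and 7.79 CPM in the knockout and 7.42, 5.47 and 2.39 CPM in the wild type (adjusted p 0.206 in edgeR), and Ier2 was at 39.9, 35.3 and 34.4 CPM in the knockout and 50.3, 46.1 and 44.4 CPM in the wild type (adjusted p 0.0531 in edgeR). Of 9 heat shock genes tested, 0 were called by edgeR, DESeq2 or limma-voom and 1 had an unadjusted p under 0.05 in edgeR, and the median log2 fold change was 0.07.

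Wide spread within groups was also seen in other stress-responsive genes, named after their values were seen. Ero1l, an oxidase of the endoplasmic reticulum, was at 291, 175 and 121 CPM in knockout replicates 1, 2 and 3, against 363, 233 and 141 CPM in the wild-type libraries in the same order. Ddit4, an inhibitor of mTORC1, was at 182, 110 and 85.2 CPM in the knockout and 149, 118 and 64.2 CPM in the wild type, and Cth, of cysteine synthesis, at 118, 79 and 57.3 CPM in the knockout and 124, 81.8 and 58 CPM in the wild type. Replicate 1 was the highest and replicate 3 the lowest of each group for these 3 genes. The main edgeR fit called none of the 3 between genotypes (adjusted p 0.761, 0.871 and 0.966). Ero1l was called lower by edgeR with the replicate block (adjusted p 0.0183) and without the filter on low counts (0.00905). Ddit4 and Cth were called in neither of those fits. Over the 40 tested ATF4 targets outside the 10 genes, replicate 1 was the highest in 26 for the knockout and 28 for the wild type, against 36.5% and 33% of all tested genes.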
